A study of Mus musculus with 16 samples.

Results

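Effector Th2 cells of the mediastinal lymph node (medLN), which drains the lung, and the mesenteric lymph node (MLN), which drains the intestine, were taken here as IL-4eGFP+ CD4 T cells with at least 1 UMI (a counted RNA molecule) of Il1rl1, Il13 or Il5. Members were thus selected on the counts of these 3 genes. By this rule 528 of 8172 IL-4eGFP+ cells were members, out of 23042 cells that passed the filters in the whole series. The other 7644 IL-4eGFP+ cells, which lacked all 3 transcripts, served as the comparison. The cells came from 2 mice of the IL-4eGFP reporter strain 4get/C57BL/6, which were 10 weeks old and were analysed 10 days after infection with Nippostrongylus brasiliensis, a nematode whose larvae pass through the lung before the worms settle in the small intestine. All groups share the reporter allele and the infection, and uninfected mice were not analysed here. Cells of each mouse and node carried 1 of 4 hashtag antibodies, and the sorted cells went into 1 library of IL-4eGFP+ and 1 of IL-4eGFP- cells, so that the 4 hashtag samples medLN 1, medLN 2, MLN 1 and MLN 2 were processed together in each library. A further experiment with lung and MLN of 2 other 4get/C57BL/6 mice, 13 weeks old and also at day 10, gave the same measure in animals that the rule did not use.

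Th2 cells are the helper T cells of worm infection and allergy. The Il1rl1 gene encodes ST2, the receptor for the alarmin IL-33, which injured epithelium releases, while Il13 acts on epithelium, smooth muscle and mucus production and Il5 supports eosinophils. In the 4get strain, eGFP marks cells that have switched on the Il4 locus, a state shared by effector Th2 cells, by the follicular helper cells that assist B cells and by some innate-like T cells, so IL-4eGFP+ cells of a lymph node are a mixture.

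The hashtags are shown because each assignment of a cell to a mouse and node rests on them. Each is 15 bases long, any 2 of them differ at 11 to 13 positions, and a cell was used if its leading hashtag held at least 80% of its hashtag UMIs and at least 10 of them.
medLN 1: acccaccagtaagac
medLN 2: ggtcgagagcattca
MLN 1: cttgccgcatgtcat
MLN 2: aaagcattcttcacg
Of 9385 IL-4eGFP+ cells that passed the filters, 8172 had such a call and 1213 did not. Barcodes without a call had a median of 3033 hashtag UMIs and 7265 transcript UMIs, against 1243 and 3348 in cells with a call. The 2 libraries shared 148 cell barcodes, 11 of which belonged to members.

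The members of each sample numbered 128 of 2067 cells in medLN 1, 146 of 2087 in medLN 2, 83 of 2004 in MLN 1 and 171 of 2014 in MLN 2. These are shares of 6.19% (exact Clopper-Pearson 95% interval 5.19 to 7.32), 6.996% (5.94 to 8.18), 4.14% (3.31 to 5.11) and 8.49% (7.31 to 9.79), where the intervals cover counting error only. The 2 MLN samples lay below and above both medLN samples. The mean share was 6.59% ± 0.568 (SD, n = 2) in medLN and 6.32% ± 3.08 (SD, n = 2) in MLN, with p = 1.0 in a two-sided exact permutation test, whose smallest possible p with 2 samples a group is 0.333. Thinning each cell to 2000 UMIs, which kept 1800, 1842, 1750 and 1831 cells, gave 4.5, 4.23, 3.14 and 5.30%, in the same order of samples, which is kept for all groups of 4 values below.

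Il1rl1 was found in 92, 117, 70 and 125 cells, Il13 in 57, 50, 19 and 70, and Il5 in 21, 23, 5 and 14. The share with Il5 was 1.06% ± 0.0609 (SD, n = 2) in medLN and 0.472% ± 0.315 in MLN, and both medLN samples lay above both MLN samples. The Il5 level of the members was 82.8 and 85.4 CPM (counts per 1000000 UMIs of the summed cells) in medLN and 286 and 38.0 CPM in MLN, but in MLN 1 a single cell held 168 of the 175 Il5 UMIs, and without it the level there was 11.6 CPM. Without the top cell of each of the other samples Il5 was at 63.0 and 60.8 CPM in medLN and 25.2 CPM in MLN 2. Il13 stood at 1110 and 1114 CPM in the members of medLN and at 430.1 and 805 CPM in those of MLN. A single cell held 259 of 1260, 343 of 1409, 208 of 263 and 450 of 1294 Il13 UMIs, and without that cell of each sample the levels were 889.9, 858, 91.5 and 531 CPM. These levels chose the members and are given as a description.

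Among the 528 members, 320 (60.6%) had Il1rl1 alone, 88 Il13 alone, 57 Il1rl1 and Il13, 26 Il13 and Il5, 25 all 3 genes, 10 Il5 alone and 2 Il1rl1 and Il5. Most cells with Il5 also held Il13 (51 of 63, 81.0%), whereas 51 of the 196 cells with Il13 (26.0%) held Il5. Il13 was seen in 82 of the 404 cells with Il1rl1 (20.3%). Members with Il13 and Il5 but no Il1rl1 had a median of 9414 UMIs a cell, against 5586 in those with Il1rl1 alone.

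In the IL-4eGFP- library, none of 8932 cells had a UMI of Il13 or Il5. With 3 cells taken as the limit where none is found, this allows a share of cells with a UMI of up to 0.136% in the smallest sample, of 2200 cells. That is an approximate one-sided 95% limit, unlike the exact intervals given for other shares. Il1rl1 was found in 38 of the 8932 (0.425%), of which 29 were among the 941 cells with a UMI of Foxp3, the lineage factor of regulatory T cells. The median depth was 3255 to 3385.5 UMIs a cell in the IL-4eGFP- samples and 3168 to 3645.5 in the IL-4eGFP+ samples. A library without these transcripts does not measure the free RNA of the IL-4eGFP+ library, where 225 of the 528 members rested on a single UMI. There, 24 of 1760 cells with a UMI of Cxcr5, the receptor of follicular helper cells, met the rule (1.36%, exact Clopper-Pearson 95% interval 0.876 to 2.02), at a median of 3609 UMIs a cell.

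Cells just outside and just inside the threshold are set side by side as a description. With 0, 1, 2 and 3 or more UMIs of the 3 genes (7644, 225, 109 and 194 cells), Plac8 stood at 102, 634, 975 and 958 CPM, Gata3 at 137, 340, 379 and 469 CPM, and Cxcr5 at 79.1, 9.45, 7.10 and 6.58 CPM. Il4 stood at 162, 171, 150 and 345 CPM and S100a4 at 35.9, 125, 101 and 238 CPM. The cells with a single UMI were nearer to those with 3 or more than to those with none for Plac8, Gata3 and Cxcr5, nearer to those with none for Il4, and in between for S100a4.

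The genes that chose the members lie in 2 places. Il13 (ENSMUSG00000020383, chr11:53631324-53634702, minus strand, GRCm38) and Il5 (ENSMUSG00000036117, chr11:53720794-53725106, plus strand) belong to the Th2 cytokine cluster, with 86.1 kb between them and 12.7 kb between Il13 and Il4. Il1rl1 (ENSMUSG00000026069) lies at chr1:40429570-40465415 on the plus strand. The 250 bases before the start of each gene, from RefSeq on GRCm38.p6, are shown because GATA3, the lineage factor of Th2 cells, is known for acting on these loci. Capitals mark the GATA motif, here GATAA or GATAG with an A or a T before it, on either strand.
Il13, chr11:53634703-53634952, minus strand: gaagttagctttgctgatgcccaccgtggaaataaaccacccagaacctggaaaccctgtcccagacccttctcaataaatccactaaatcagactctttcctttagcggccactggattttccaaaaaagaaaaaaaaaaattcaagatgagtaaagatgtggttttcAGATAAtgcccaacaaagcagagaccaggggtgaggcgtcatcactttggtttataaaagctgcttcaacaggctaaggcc
Il5, chr11:53720544-53720793, plus strand: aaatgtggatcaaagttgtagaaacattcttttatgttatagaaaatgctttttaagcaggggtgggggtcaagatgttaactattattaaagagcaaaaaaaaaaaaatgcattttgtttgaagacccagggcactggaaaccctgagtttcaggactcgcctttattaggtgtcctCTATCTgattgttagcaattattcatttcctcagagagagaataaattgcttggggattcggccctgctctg
Il1rl1, chr1:40429320-40429569, plus strand: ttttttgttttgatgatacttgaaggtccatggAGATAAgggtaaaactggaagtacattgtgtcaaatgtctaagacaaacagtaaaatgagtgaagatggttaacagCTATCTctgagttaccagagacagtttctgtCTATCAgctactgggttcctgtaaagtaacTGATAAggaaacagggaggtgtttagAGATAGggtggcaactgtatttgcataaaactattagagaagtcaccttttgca
The first window holds 1 match 81 bases before the start, the second 1 match at 72 bases, and that of Il1rl1 5 matches between 54 and 217 bases. RefSeq gives a second start of Il1rl1, whose window (chr1:40439379-40439628) holds 1 match, at 103 bases. Of 32851 windows of 250 bases before annotated starts, 26.5% hold a match and 1.35% hold 3 or more. A match is a string of letters and no sign of binding.

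Members were larger libraries than the other cells. Their median was 5849, 6514, 5581 and 6484 UMIs a cell, against 3085, 3186, 3276 and 3540, which is 1.90, 2.04, 1.70 and 1.83 times as many. Their hashtag UMIs were not raised in this way, at 1.08, 0.945, 0.948 and 0.911 times those of the other cells. A UMI of Mki67 or Top2a, both expressed by dividing cells, was seen in 49.2, 50, 37.3 and 46.8% of members and in 17.7, 18.7, 17.2 and 18.9% of other cells. Deeper cells pass a rule of 1 UMI more easily. The comparisons with the other cells of medLN and MLN were therefore repeated with other cells matched to the members on UMIs. No such matching was done in the lung and MLN of the other mice.

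**Figure D1:**
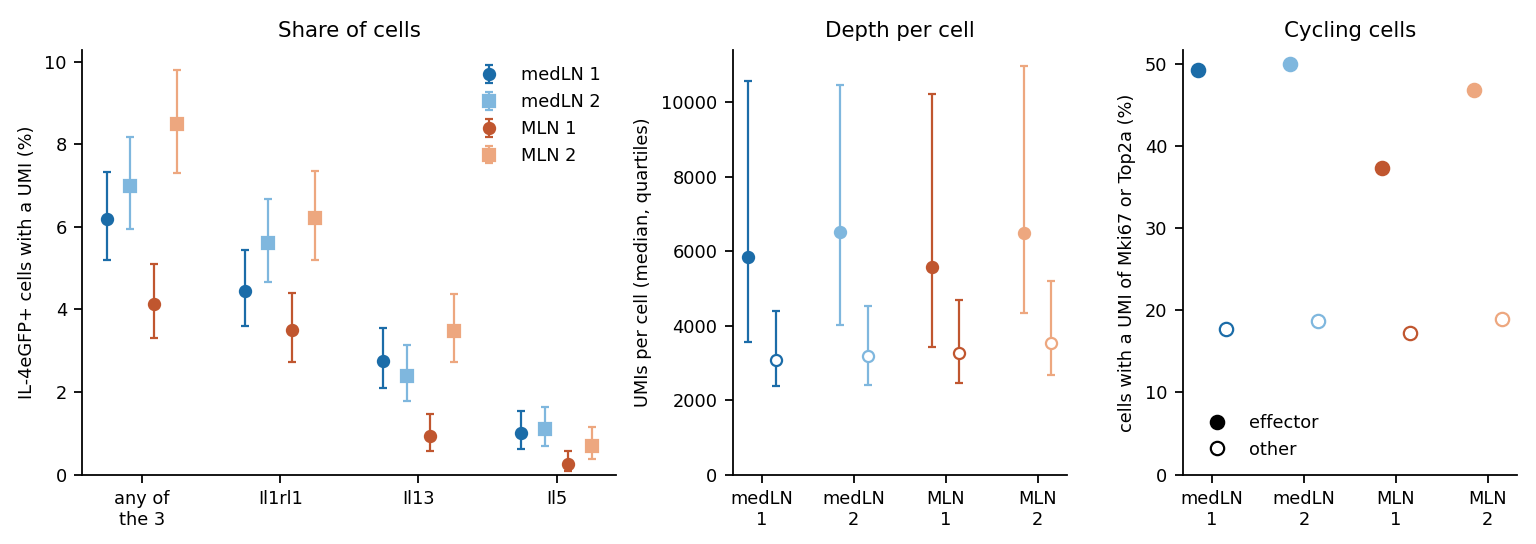
Left, share of IL-4eGFP+ cells with a UMI of each gene in each hashtag sample, with exact 95% intervals. Middle and right, median UMIs per cell with quartiles, and the share of cells with a UMI of Mki67 or Top2a, for effector cells (filled) and other cells (open). The members held 1.70 to 2.04 times the UMIs of the other cells in all 4 samples, and MLN 1 had the lowest share of members.

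The label was checked against defining markers. The 5 T cell markers (Cd3e, Cd3d, Cd3g, Cd4 and Cd28) summed to 3147 to 4330 CPM in members and 4116 to 4278 CPM in other cells, with Cd3g the most abundant in members. The 2 CD8 T cell markers summed to 6.22 to 9.49 CPM in members against 6.74 to 11.95 CPM, all of it Cd8b1 in members, where Cd8a was at 0. The 5 innate-like T cell markers summed to 0 to 11.4 CPM against 10.3 to 17.6 CPM, with Tbx21 the most abundant in members (9.69 CPM in medLN 1) and Klrd1 and Ncr1 at 0. The 5 B cell markers summed to 60.8 to 84.0 CPM in members against 164 to 253 CPM, and the 6 myeloid markers to 4.40 to 26.9 against 36.8 to 124 CPM. The 7 basophil and mast cell markers summed to 70.5 to 186 CPM in members against 5.31 to 10.8 CPM, with Hdc, the histamine-forming enzyme, the most abundant at 40.5, 163, 137 and 36.1 CPM, while Fcer1a and Ms4a2, which encode chains of the IgE receptor, were at 0. The 4 eosinophil markers summed to 0 to 8.18 CPM in members against 0 to 2.77 CPM, in members all of it Siglecf, while Prg2, Epx and Ear2 were at 0. The 4 markers of group 2 innate lymphoid cells, which like Th2 cells express ST2, summed to 59.9 to 190 CPM against 8.93 to 26.0 CPM, with Klrg1 the most abundant. The 4 regulatory T cell markers summed to 285 to 509 CPM in members against 228 to 289 CPM, with Ctla4 the most abundant on average, and none was at 0. A Foxp3 UMI was found in 4, 5, 2 and 5 members (3.12, 3.42, 2.41 and 2.92%) and in 0.877, 1.18, 2.71 and 3.26% of other cells, so that the share was above that of other cells in both medLN samples and below it in both MLN samples. The part of these markers in the results was not tested, other than by leaving out the cells with a Foxp3 UMI and those with Zbtb16, Klrb1c or Tbx21. Plac8, the remaining marker given for these cells, was not used by the rule and stood at 475, 421, 1393 and 1203 CPM in members against 69.3, 47.9, 120.2 and 166 CPM in other cells.

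The first comparison asks what sets effector cells apart from the other IL-4eGFP+ cells of the same mouse and node. Among the genes higher in members were Areg, Ltb4r1, Gzmb, Plac8 and Gata3, and among the lower ones Cxcr5, Bcl6 and Tcf7. Most tested tissue effector genes were higher, and most tested follicular helper genes and naive and central memory genes were lower. The lists were chosen with earlier results of these data known, so counts by list, here and below, are a description. Counts were summed per sample, the 3 genes of the rule were left out, and the sums were compared in edgeR's quasi-likelihood test, with p-values adjusted over the whole table by Benjamini and Hochberg and a threshold of 0.05. Over 10328 genes, 1767 were higher in members (17.1% of all genes tested) and 1667 lower (16.1%), 33.2% in all. With other cells matched on UMIs, 632 of 8115 were higher (7.79%) and 448 lower (5.52%), 13.3% in all, and with cells with a Mki67 or Top2a UMI left out as well 463 of 4859 (9.53%) and 344 (7.08%), 16.6% in all. With the cells with Il1rl1 alone as members, 1116 of 10311 genes were higher (10.8%) and 879 lower (8.52%), 19.3% in all. With the cells with Il13 or Il5 as members, 1670 of 10252 were higher (16.3%) and 1692 lower (16.5%), 32.8% in all.

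Areg, which encodes amphiregulin, a growth factor of tissue repair, had the largest rise of all genes that averaged 50 CPM or more over the sums. It stood at 111, 452, 31.1 and 39.2 CPM in members and 3.21, 1.84, 4.04 and 2.1 CPM in other cells (log2 fold change 5.59 ± 0.427 (SE), adjusted p = 4.8e-08). The 780 Areg UMIs of the members lay in 61 cells. Ltb4r1, a receptor for leukotriene B4 that guides cells to inflamed tissue, was at 213, 195, 136 and 65.3 CPM against 15.2, 8.27, 7.04 and 7.3 CPM (log2 fold change 3.99 ± 0.162 (SE), adjusted p = 6.3e-11). Cysltr1, a receptor for cysteinyl leukotrienes, was at 156, 176, 226 and 185 CPM against 27.1, 17.6, 22.2 and 25.9 CPM (log2 fold change 3.01 ± 0.122 (SE), adjusted p = 6.3e-11). The groups did not overlap for these 3 genes. Genes named for large changes tend to lie apart, and no share over all genes is given. Statements on overlap, here and below, are therefore a description. In the list of 13 lipid mediator genes, 10 were tested, of which 7 were higher and 1 lower, with a median log2 fold change of 1.41 against -0.029 over all genes. Besides Ltb4r1 and Cysltr1, the higher ones were Pparg (3.45), a lipid-sensing nuclear receptor, Alox5ap (1.53), Ptgir (1.5), which binds prostacyclin, Plin2 and Fabp5. The call of Alox5ap (adjusted p = 0.039) ended without medLN 1, without medLN 2 and without MLN 1, and it was not tested with matched cells. Ptger2, a receptor for prostaglandin E2, was lower (-1.14).

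Of 15 Th2 identity genes, 13 were tested, 8 were higher and 2 lower (median 0.55). Gata3 was at 383, 379.6, 513 and 391 CPM in members and 144, 122, 137 and 145 CPM in other cells (log2 fold change 1.61 ± 0.0792 (SE), adjusted p = 3.6e-10), with no overlap. Pparg (log2 fold change 3.45), Rbpj (1.88), which mediates Notch signals, and Bhlhe40 (1.65) were also higher. Il4 itself, whose locus the reporter marks, differed less, at 175, 349.5, 196 and 220.3 CPM against 149, 161, 166 and 171 CPM (log2 fold change 0.55 ± 0.117 (SE), adjusted p = 0.0018). Stat6, which carries the IL-4 signal, stood at 37.6 to 52.3 CPM in members and 45.8 to 54.4 CPM in other cells (adjusted p = 0.43), and Il4ra, a chain of the IL-4 receptor, was lower (-0.72), a call that ended with matched cells (adjusted p = 0.073).

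Of 15 genes of alarmin and common gamma chain receptors and their signalling, all tested, 10 were higher and 1 lower (median 0.41). Il17rb, the receptor for IL-25, was at 17.6, 26.1, 37.6 and 49.2 CPM against 7.5, 10.2, 13.3 and 11.3 CPM (log2 fold change 1.66 ± 0.184 (SE), adjusted p = 3.4e-06). Il7r, which carries the survival signal of IL-7, was at 158, 164, 172 and 117 CPM against 106, 81.8, 63.9 and 55.8 CPM (log2 fold change 1.01 ± 0.109 (SE), adjusted p = 2.3e-06). Crlf2, the receptor chain for the alarmin TSLP, was higher by 0.26, and Cish, a feedback inhibitor of cytokine signals, by 1.34. Il2ra, the high-affinity chain of the IL-2 receptor, was higher by 1.55 (adjusted p = 9.0e-06), but this call ended with matched cells (0.54, adjusted p = 0.10). Il2rb was lower (-0.25, adjusted p = 0.041), a call lost when any 1 of the 4 samples was left out.

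Other cytokines differed in both directions: of 13 tested in a list of 20, 7 were higher and 6 lower. Il6, found at 16.4 to 40.3 CPM in members and 0.23 to 1.5 CPM in other cells, was higher (log2 fold change 4.77 ± 0.375 (SE), adjusted p = 6.7e-08), as were Il10 (3.38) and Csf1 (2.44), the growth factor of macrophages. The lower ones were Il21 (-2.39), the cytokine of follicular helper cells, Tnf (-1.67), Lta, Ltb (-1.51), Il2 and Tnfsf11. Il9, Il3, Csf2, Ifng, Il17a, Il24 and Calca were too low to be tested.

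Of 27 tested tissue effector genes, 25 were higher and 1 lower (median 1.32). With matched cells 24 were higher and none lower (median 0.87). Plac8, a small cysteine-rich protein, was higher by 3.1 ± 0.0979 (SE, adjusted p = 3.2e-12), and the lowest member sum (421 CPM) lay above the highest sum of other cells (166 CPM). Adam8, a membrane protease, was at 44.9, 42.7, 126 and 122 CPM against 6.31, 5.4, 15.7 and 17.9 CPM (log2 fold change 2.9 ± 0.123 (SE), adjusted p = 9.8e-11). Lgals1, a galectin, was at 3369.6, 3158, 2692 and 3548 CPM against 1002, 998, 968 and 1186 CPM (log2 fold change 1.64 ± 0.0483 (SE), adjusted p = 3.2e-12). Vim (1.47), S100a4 (2.17), S100a6 (1.28), Rora (1.74) and Id2 (1.54), both transcription factors of effector and innate lymphoid cells, were higher too. Cd44, an adhesion receptor, was the lower one (-0.31), and its log2 fold change was 0.22 among cells without Mki67 or Top2a and -0.049 with matched cells (adjusted p = 0.86).

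Granule genes were few. Gzmb, which encodes granzyme B, was at 457, 484, 301 and 663 CPM against 21.7, 17.5, 37.7 and 54.5 CPM (log2 fold change 3.95 ± 0.187 (SE), adjusted p = 2.3e-10). Nkg7, a granule membrane protein, was at 93.4, 84.6, 497 and 296 CPM against 13.8, 12.3, 23.8 and 35.2 CPM (log2 fold change 3.37 ± 0.194 (SE), adjusted p = 1.7e-09). Gzma was at 186, 228, 571 and 1412 CPM against 25.6, 25.5, 105 and 357 CPM (log2 fold change 2.53 ± 0.132 (SE), adjusted p = 6.3e-10), and here the groups overlapped, since other cells of MLN 2 held more than the members of medLN. With only the cells with Il13 or Il5 taken as members its log2 fold change was -0.11. Ccl5 and Serpinb6b were lower among the 6 tested of 8 genes. The chemokine gene Ccl1 was higher (3.57, adjusted p = 2.3e-05), but its 600 UMIs lay in 32 members, of which 1 cell held 177.

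Among 23 tested homing receptors and integrins, 12 were higher and 9 lower. Ccr9, the receptor for the chemokine of the small intestine, was at 36.1, 34.8, 286 and 307 CPM against 7.5, 11.5, 42.5 and 64.02 CPM (log2 fold change 2.35 ± 0.132 (SE), adjusted p = 1.5e-09), and the members of medLN lay below the other cells of MLN. Ccr2, a receptor for inflammatory chemokines, was at 185, 187, 178 and 105 CPM against 35.8, 30.8, 32.1 and 30.7 CPM (log2 fold change 2.33 ± 0.116 (SE), adjusted p = 3.7e-10). Ccr8 (2.7), Cxcr6 (1.96), Itgb7 (1.00) and Itga4 (0.81), the last pair forming an integrin of gut homing, were higher as well. Lower were Cxcr5 (-3.28) and Ccr7 (-2.07), which keep cells in lymph nodes and follicles. S1pr1, which lets cells leave a node, stood at 61.6, 71.96, 47.4 and 49.2 CPM in members and 80.7, 62.4, 43.9 and 51.1 CPM in other cells (adjusted p = 0.90).

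Of 19 follicular helper genes, 16 were lower and none higher (median -1.93), and of 16 tested naive and central memory genes 12 were lower and none higher (median -1.34). Cxcr5, the receptor that leads into the follicle, was at 4.4, 7.12, 14.7 and 8.09 CPM against 58.8, 79.2, 95.1 and 82.4 CPM (log2 fold change -3.28 ± 0.166 (SE), adjusted p = 4.6e-10). Bcl6, the lineage factor of follicular helper cells, was at 4.4, 10.3, 6.54 and 4.98 CPM against 54.4, 67.2, 72.3 and 61.8 CPM (log2 fold change -3.25 ± 0.184 (SE), adjusted p = 1.5e-09). Tcf7, a transcription factor of naive, memory and follicular helper cells, was at 109, 115, 76.9 and 62.9 CPM against 554, 566, 576 and 569 CPM (log2 fold change -2.62 ± 0.114 (SE), adjusted p = 1.1e-10). Members and other cells did not overlap for these 3 genes. Id3 (-2.66), Nsg2 (-3.17), Actn1 (-3.04) and Lef1 (-1.76) were lower too, while Icos stood at 334 to 386 CPM against 326 to 418 CPM (adjusted p = 0.63). With matched cells 14 of 18 and 12 of 15 genes were lower.

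The largest falls also took in Ephx1 (-3.04), an epoxide hydrolase, Rflnb (-2.48), Asap1 (-2.3), Dennd2d (-2.24) and 2010016I18Rik (-2.13). The last one overlaps the start of Dennd2d on the opposite strand, so reads of this pair are uncertain where strand was not used in counting. Jchain, which joins secreted antibodies and belongs to plasma cells, had 4 UMIs in 3 members and 4180 in 54 other cells, 1191 of them in a single cell.

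**Figure D2:**
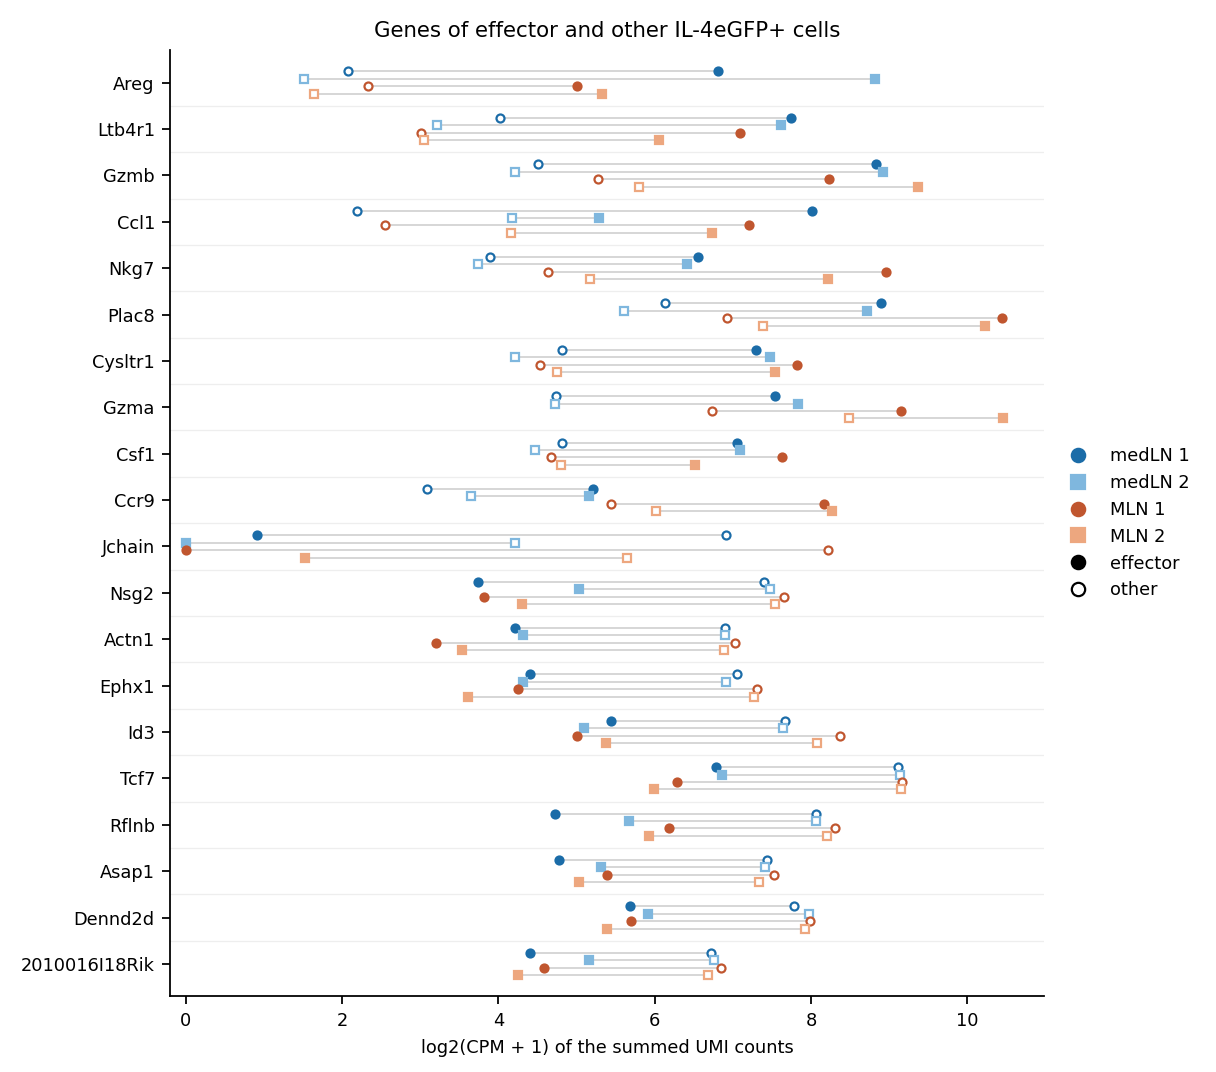
Level of the 10 genes with the largest rise and the 10 with the largest fall in effector cells, as log2(CPM + 1) of summed UMI counts, for effector (filled) and other cells (open) of each hashtag sample. Each line joins the 2 sums of 1 sample, and genes were shown only if members lay on the same side of the other cells in all 4 samples.

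Costimulatory and inhibitory receptors went both ways, with 9 of 17 higher and 3 lower. Klrg1, an inhibitory receptor of late effector cells, was at 36.1, 41.9, 50.7 and 133 CPM against 1.31, 0.575, 3.92 and 11.5 CPM (log2 fold change 4.07 ± 0.253 (SE), adjusted p = 4.2e-09). Ly6a (1.1), Tnfrsf1b (0.97) and Ctla4 (0.40) were higher, and Pdcd1 (-1.18), which is high in follicular helper cells, Cd28 and Tigit were lower.

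The counts of 4 further lists moved with matching. Of 18 cell cycle genes 17 were higher (median 0.90), among them Mki67 at 552, 564, 378 and 399.5 CPM against 269, 258, 224 and 213 CPM (log2 fold change 0.99 ± 0.0681 (SE), adjusted p = 1.3e-08), but with matched cells none was higher and 2, Mcm6 and Mcm5, were lower (median 0.022). Of 13 glycolysis genes 10 were higher and 1 lower, and with matched cells 1 was higher, Aldoa, and none lower. Of 14 interferon response genes 8 were lower, and with matched cells 2 were lower, Ifit1 and Ifi27l2a, and 2 higher, Bst2 and Ly6e. Of 16 tested early response genes 6 were lower and 2 higher, Jun and Junb, and with matched cells 3 of 13 were lower, Dusp2, Rel and Egr2, and Junb was higher. With each cell thinned to 2000 UMIs, Mki67 was still found in 28.2, 26.8, 20.7 and 20.2% of members against 9.55, 10.06, 8.15 and 8.90% of other cells, and Top2a in 27.4, 24.6, 18.3 and 16.7% against 9.61, 9.82, 7.25 and 8.24%. Membership was still taken at full depth, so thinning did not undo the easier entry of deeper cells. The thinned shares were higher in members in all 4 samples, while the matched sums gave no call for Mki67 and Top2a.

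Of the single genes named for this comparison, the call of Il4ra ended without medLN 1, that of Cd44 without MLN 2, and that of Jun without medLN 1, without medLN 2 and without MLN 1. The call of Ccl1 ended with Il1rl1-only cells as members, and the signs of Jun and Junb turned. Without cells carrying Mki67 or Top2a the calls of Il4ra, Il2rb, Tnf, Serpinb6b, Jun and Egr2 ended, and with matching as well those of Ccl1, Il4ra, Il2rb, Serpinb6b, Egr2 and Rel.

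The second comparison asks whether effector cells of the lung-draining node differ from those of the gut-draining node. Members of the MLN carried more Ccr9, Plac8, Gzma and Nkg7, and those of the medLN more Areg, S100a4, Itgb1 and Pparg. Of 8221 genes tested in edgeR, 51 (0.62%) were higher and 53 (0.645%) lower in medLN, 1.27% in all. The unadjusted p was under 0.05 for 878 genes, DESeq2 called 44, and leaving out 1 sample gave 123 to 273. Each mouse gave both nodes, and with mouse as a block 75 genes were called. A node and its hashtags cannot be told apart.

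The calls of Ccr9, Lztfl1, Plac8, Nkg7, Adam8, Nmur1, Lgmn, Gimap7 and Phlda1 were kept in all 16 alternatives. The calls of Areg, S100a4, Itgb1, Pparg, Ier3, Il2ra, Ltb4r1, Penk, St3gal6, Klrg1, Hist1h2an, Irf4, Nfil3, Tnfsf8, Top2a and Mki67 ended with DESeq2. Without cells carrying Mki67 or Top2a, those of Areg, Itgb1, Pparg, Gzma, Ier3, Il2ra, Ltb4r1, Cd74, Klrg1, Irf4, Nfil3, Tnfsf8, Capg, Gbp2 and Ly6e ended. Without MLN 2 those of Pparg, Ltb4r1, Tnfsf8 and Klrg1 ended, without medLN 1 those of Tnfsf8, Top2a and Mki67, and without medLN 2 those of Top2a, Mki67 and Ly6e. With cells with many hashtag UMIs left out, those of Areg, Penk, Fgl2, Cd74, Ltb4r1, Klrg1, Irf4, Tnfsf8 and Mki67 ended. With members of 2 or more UMIs, those of Cd74, Ltb4r1, Klrg1, Irf4, Nfil3, Capg, Igfbp4, Hist1h2an, Top2a and Mki67 ended, and in a fit in which all 8 sums shared 1 spread, those of Gzma, Penk, Pparg, Ltb4r1, Klrg1, Irf4 and Tnfsf8.

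Ccr9 was at 36.1 and 34.8 CPM in the members of medLN and 286 and 307 CPM in those of MLN (log2 fold change -3.09 ± 0.166 (SE), adjusted p = 8.1e-08). Lztfl1, at 46.7 and 56.1 CPM and 245 and 294 CPM (log2 fold change -2.43 ± 0.171 (SE), adjusted p = 1.3e-06), lies within Ccr9 on the opposite strand (chr9:123694416-123717697 in chr9:123678439-123784330), so their reads are uncertain for the same reason. In the other cells Ccr9 stood at 7.5 and 11.5 CPM and 42.5 and 64.02 CPM, and the node difference of members minus that of other cells was -0.58 (adjusted p = 0.60), so it was not shown to be particular to the members.

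Gzma was at 186 and 228 CPM in medLN and 571 and 1412 CPM in MLN (log2 fold change -2.32 ± 0.281 (SE), adjusted p = 4.4e-04), and Nkg7 at 93.4 and 84.6 CPM and 497 and 296 CPM (log2 fold change -2.14 ± 0.206 (SE), adjusted p = 3.8e-05). Plac8 was at 475 and 421 CPM and 1393 and 1203 CPM (log2 fold change -1.55 ± 0.106 (SE), adjusted p = 1.3e-06), and Adam8 at 44.9 and 42.7 CPM and 126 and 122 CPM (log2 fold change -1.52 ± 0.179 (SE), adjusted p = 3.9e-04). The pairs did not overlap for any of these genes, which were picked for a called difference, so this is a description. In the other cells Gzma, Nkg7, Plac8 and Adam8 were likewise lower in both medLN samples than in both MLN samples. For Gzma the node difference of members minus that of other cells was 0.83 (edgeR interaction, adjusted p = 0.0077), so it was smaller in members. That call ended with matched cells. The interaction was not called for Nkg7, Plac8 and Adam8, so none of these differences was shown to be larger in members. Nmur1, the receptor for neuromedin U, was at 27.3 and 37.2 CPM and 94.8 and 113 CPM (log2 fold change -1.73 ± 0.212 (SE), adjusted p = 4.4e-04). Also lower in medLN were St3gal6 (-2.05), a sialyltransferase, Lgmn (-2.04), a lysosomal protease, Gimap7 (-1.96), of a family of similar GTPases, 1700061F12Rik (-1.83), Cd74 (-1.61), the invariant chain of MHC class II, and Klrg1 (-1.41).

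Areg was at 111 and 452 CPM in the members of medLN and 31.1 and 39.2 CPM in those of MLN (log2 fold change 2.93 ± 0.485 (SE), adjusted p = 0.0049). Its level in medLN 2 was over 4 times that in medLN 1, and 1 cell of the members held 176 of all 780 UMIs. S100a4 was at 300.3 and 237 CPM and 111 and 44.2 CPM (log2 fold change 1.96 ± 0.268 (SE), adjusted p = 0.0011), and Itgb1, an integrin of tissue adhesion, at 613 and 529 CPM and 257 and 134 CPM (log2 fold change 1.61 ± 0.203 (SE), adjusted p = 4.9e-04). Pparg was at 77.5 and 88.6 CPM and 45.8 and 24.9 CPM (log2 fold change 1.36 ± 0.249 (SE), adjusted p = 0.011), and Fgl2, a secreted regulator, at 104 and 98.1 CPM and 26.2 and 41.1 CPM (log2 fold change 1.45 ± 0.214 (SE), adjusted p = 0.0016). Ltb4r1 (1.13), Ier3 (2.29), Phlda1 (1.94) and Il2ra (1.11) were higher in medLN as well. Penk, a precursor of enkephalins (2.51), rested on 14 members, of which 1 held 153 of 289 UMIs. Hist1h1a and Hist1h2an belong to families of near-identical histone genes, so their counts are uncertain.

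By list, tissue effector genes split between the nodes, with 7 of 27 higher in medLN and 2, Plac8 and Adam8, lower. Of 13 Th2 identity genes Pparg and Irf4 were higher and Nfil3 lower, and Gata3 stood at 383 and 379.6 CPM and 513 and 391 CPM (adjusted p = 0.54). Of 19 homing genes 2 were higher, among them Itgb1, and Ccr9 was lower. Of 18 cell cycle genes Top2a and Mki67 were higher in medLN, and both calls ended with mouse as a block (adjusted p = 0.17 and 0.14), as did that of Irf4 (0.08). Of the remaining lists, Il2ra was higher among 12 receptor genes, Pparg and Ltb4r1 among 9 lipid mediator genes, Areg among 9 cytokines, Igfbp4 and 1 other gene among 14 naive and central memory genes and Tnfsf8 among 13 follicular helper genes. Klrg1 was lower among 17 costimulatory and inhibitory receptors and Gzma and Nkg7 among 5 granule genes, and of 11 interferon response genes Ifi27l2a was higher and Gbp2 and Ly6e lower. None of 13 glycolysis genes and 13 early response genes was called.

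**Figure D3:**
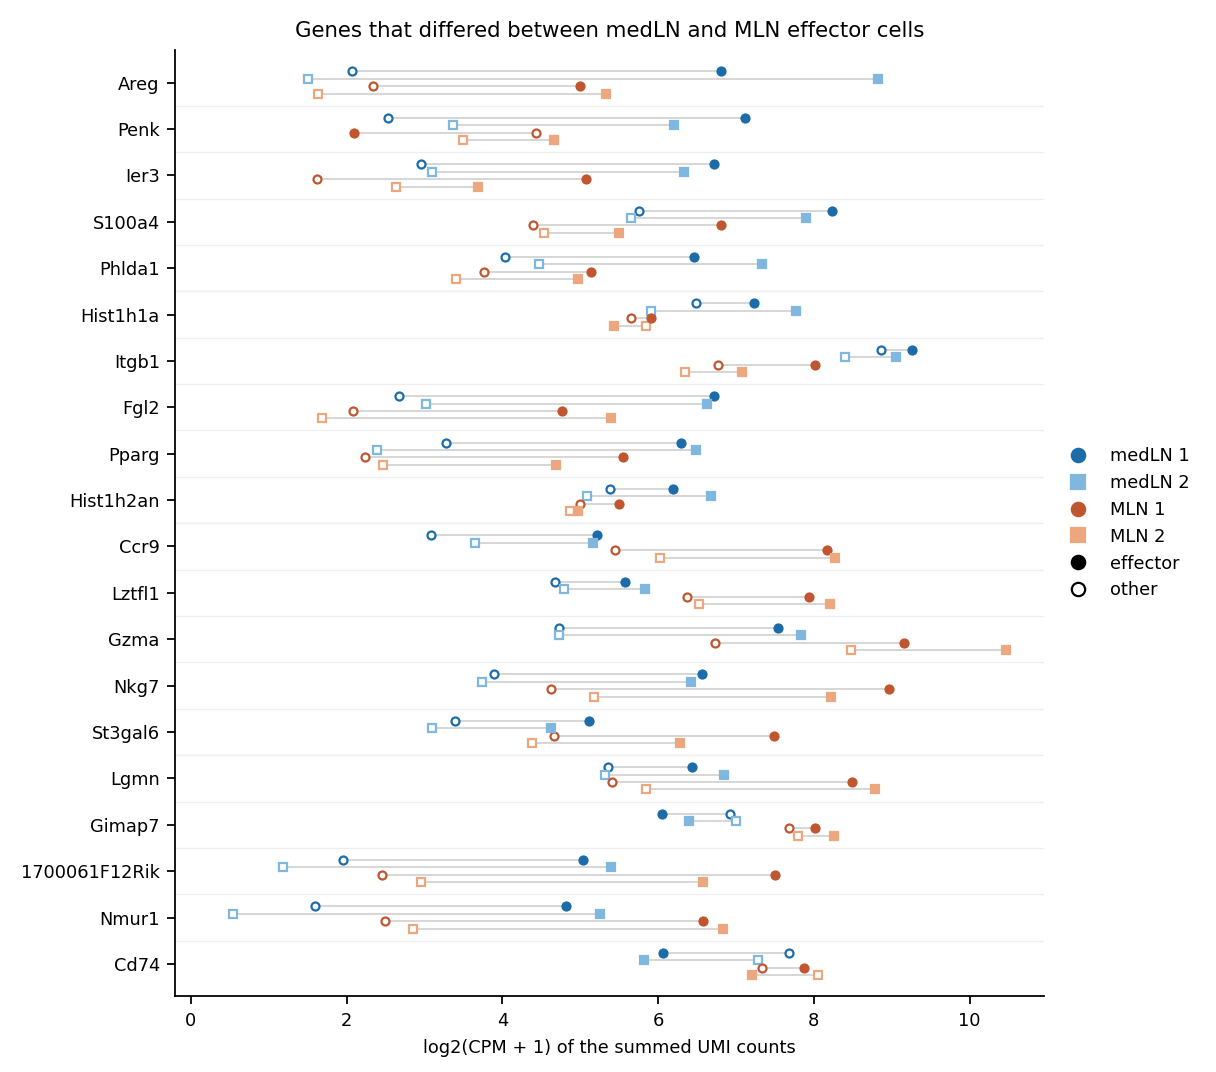
Level of the 10 genes most raised in medLN and the 10 most raised in MLN among effector cells, as log2(CPM + 1) of summed UMI counts, for effector (filled) and other cells (open). Blue marks medLN and orange MLN. The filled blue and orange symbols do not overlap for any gene, while the open symbols of the nodes overlap for Areg, Pparg and Cd74. The genes were picked for a called difference with the same direction in both mice, so the gap between filled symbols is a description.

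Whether a difference between the nodes was particular to effector cells was tested as an interaction over 10827 genes. In 20 genes (0.185%) the difference was shifted toward medLN in members and in 15 (0.139%) toward MLN, 0.323% in all, with 789 genes at an unadjusted p under 0.05. Il2ra was at 209.6 and 253 CPM and 68.7 and 128 CPM in members but at 52.7 and 58.4 CPM and 57.9 and 59.3 CPM in other cells (interaction 1.22 ± 0.194, adjusted p = 0.0014). Lgmn was at 85.4 and 114 CPM and 358 and 439 CPM in members and at 39.99 and 38.96 CPM and 41.3 and 56.5 CPM in other cells (-1.7 ± 0.171, adjusted p = 2.2e-06), a call that ended with matched cells (-1.13, adjusted p = 0.19).

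Ifi27l2a, an interferon-induced gene, was at 999 and 834 CPM and 505 and 363 CPM in members and at 1971 and 1402 CPM and 1525 and 1372 CPM in other cells (0.89 ± 0.103, adjusted p = 2.0e-05). For Areg the interaction was 3.05 ± 0.557, adjusted p = 0.0077, a call that ended without medLN 2 (1.47, adjusted p = 0.20), without MLN 1 (2.49, adjusted p = 0.13) and without cells carrying Mki67 or Top2a (1.6, adjusted p = 0.37). Gzmb (1.21 ± 0.175, adjusted p = 4.7e-04) stood at 457 and 484 CPM and 301 and 663 CPM in members, which overlap, while other cells held less in medLN than in MLN, and this call ended with matched cells (1.67, adjusted p = 0.67). For Plac8 the interaction was -0.24 (adjusted p = 0.83). With matched cells 14 genes were called, among them Il2ra, Ifi27l2a, Gimap7, Cd74, Areg, Hist1h1a and Syt11 of those named here, and with DESeq2 10.

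The third comparison asks how members vary among themselves. The 208 members with Il13 or Il5 were set against the 320 with Il1rl1 alone, in sums of 60, 55, 20 and 73 cells against 68, 91, 63 and 98. Cells with the cytokines held more Areg, Ccl1, Tnfsf8 and Bhlhe40, and those with Il1rl1 alone more Gzma, Cd7 and Ms4a4b. Of 6593 genes, 443 (6.72%) were higher and 469 (7.11%) lower in the cytokine cells, 13.8% in all. With both classes matched on UMIs 327 of 6002 (5.45%) were higher and 303 (5.05%) lower, 10.5% in all. Without the sample as a block 573 were called, and DESeq2 called 238.

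Areg was at 181, 993, 71.4 and 52.2 CPM in cytokine cells and 4.44, 17.1, 13.97 and 23.4 CPM in cells with Il1rl1 alone (log2 fold change 4.16 ± 0.409 (SE), adjusted p = 1.7e-07). Ccl1 was at 423, 60.3, 412 and 185 CPM against 6.66, 19.98, 34.9 and 8.27 CPM (log2 fold change 3.77 ± 0.299 (SE), adjusted p = 6.9e-09). Tnfsf8, the ligand of CD30, was at 187, 144, 187 and 65.8 CPM against 22.2, 24.3, 4.66 and 6.89 CPM (log2 fold change 3.15 ± 0.253 (SE), adjusted p = 6.9e-09). For each of these 3 genes the lowest value of the cytokine cells was above the highest of the others. They were picked for the largest rises with the same direction in all 4 samples, so this is a description. A single member held 176 of the 780 Areg UMIs of all members, and 1 held 177 of the 600 Ccl1 UMIs. Hdc was at 64.2, 289, 389.9 and 51.1 CPM against 4.44, 61.4, 30.3 and 17.9 CPM (log2 fold change 2.57 ± 0.242 (SE), adjusted p = 8.2e-08), so the Hdc signal of the members lay mainly in cells with Il13 or Il5. Il1r2, a decoy receptor for IL-1 (2.1), Irf4 (1.88), a transcription factor raised by T cell receptor signals, Odc1 (1.77) and Srm (1.7), enzymes of polyamine synthesis, Phlda1 (2.23) and Ier3 (1.93) were higher as well.

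Gzma was at 4.38, 5.32, 0 and 584 CPM in cytokine cells and 462, 407, 813 and 2417 CPM in cells with Il1rl1 alone (log2 fold change -3.36 ± 0.34 (SE), adjusted p = 2.7e-07). The cytokine cells of medLN and of MLN 1 were at or near 0, while those of MLN 2 overlapped with the other class. Cd7, a T cell surface protein, was at 2.92, 1.77, 21.97 and 22.7 CPM against 107, 67.1, 182 and 114 CPM (log2 fold change -3.23 ± 0.296 (SE), adjusted p = 6.2e-08). Ms4a4b, a membrane protein of T cells with close relatives in the genome, was at 277, 189.7, 434 and 409 CPM against 1088, 651, 1213 and 1159 CPM (log2 fold change -1.71 ± 0.0956 (SE), adjusted p = 1.5e-11). For Cd7 and Ms4a4b the classes did not overlap. Slfn1 (-1.99), St3gal6 (-1.94), Rnf167 (-1.78), Klf3 (-1.7), Rflnb (-1.52), Satb1 (-1.51) and Ifi27l2a (-1.5) were lower too.

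**Figure D4:**
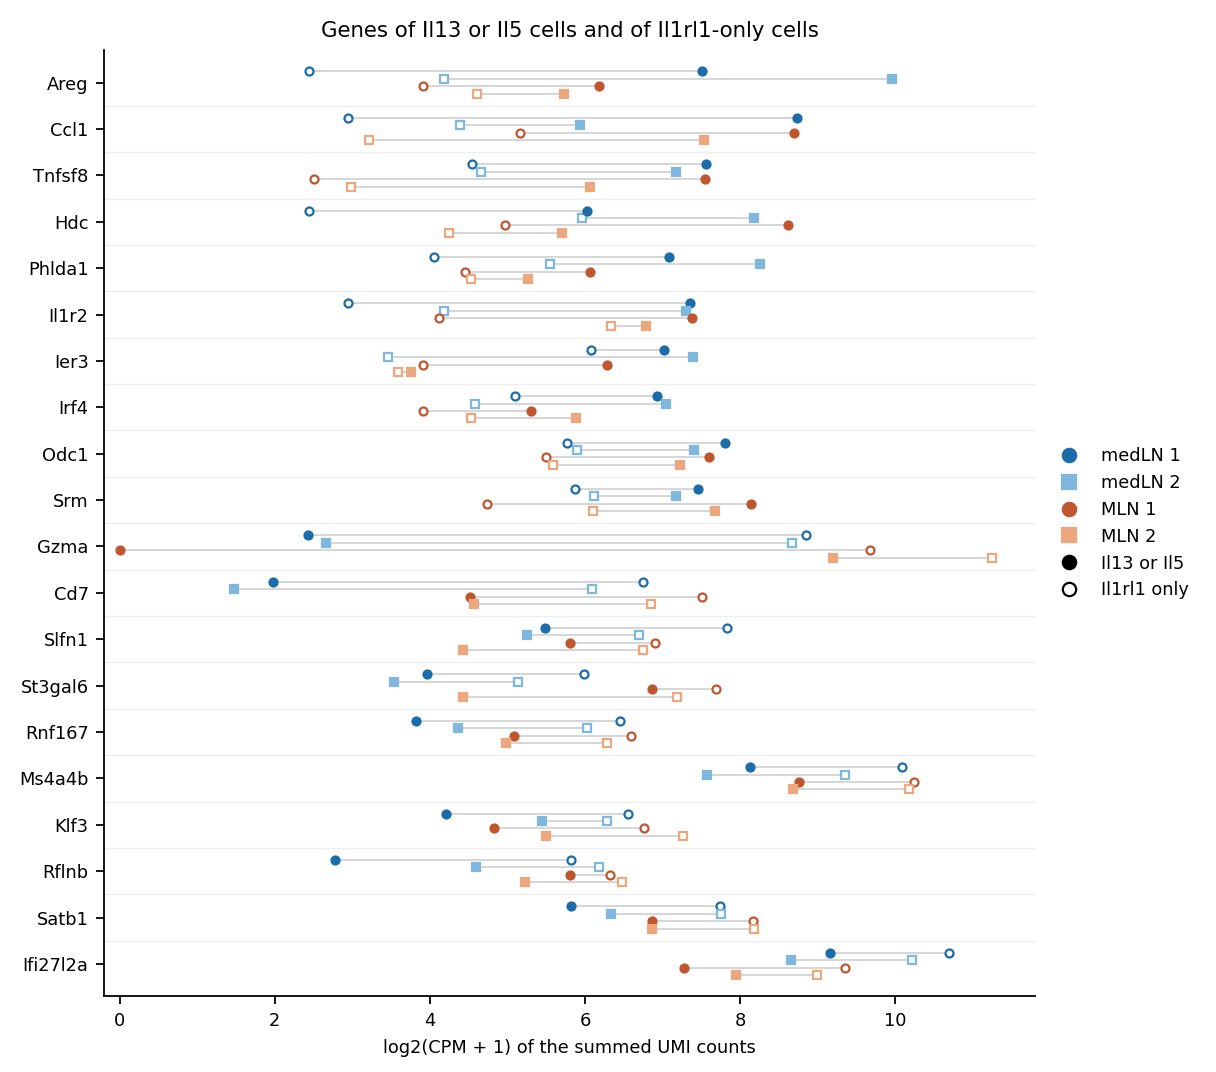
Level of the 10 genes most raised and the 10 most lowered in effector cells with Il13 or Il5 (filled) against those with Il1rl1 alone (open), as log2(CPM + 1) of summed UMI counts in each hashtag sample. Genes were shown only if the 2 classes lay apart in the same direction in all 4 samples, and the narrowest gap is that of Ier3 in MLN 2.

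Of 18 tested homing genes, 10 were lower in cytokine cells and 1, Ccr8 (1.81), was higher. Ccr9 was at 0, 7.09, 187 and 224 CPM against 91.02, 57.1, 328 and 409 CPM (log2 fold change -1.39 ± 0.285 (SE), adjusted p = 0.0015), and Ccr2 at 161, 158, 54.9 and 28.4 CPM against 222, 209.8, 231 and 198 CPM (log2 fold change -1.19 ± 0.238 (SE), adjusted p = 0.0013). Itgb1 (-0.79), Itgb7 (-0.44), S1pr1 (-0.97) and Klf2 (-0.82), a factor that drives S1pr1, were lower as well. Of 14 naive and central memory genes 9 were lower and none higher, among them Cd27 (-1.47).

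Of 13 Th2 identity genes 5 were higher and 3 lower. Bhlhe40, a factor of cytokine production, was at 172, 204, 143 and 102 CPM against 44.4, 51.4, 74.5 and 31.7 CPM (log2 fold change 1.67 ± 0.179 (SE), adjusted p = 5.9e-07). Il4 was at 185, 569, 214 and 269 CPM against 159.8, 173, 189 and 161 CPM (log2 fold change 0.81 ± 0.172 (SE), adjusted p = 0.0021), with the highest value in medLN 2, without which the call ended (0.41, adjusted p = 0.10). Gata3 stood at 396, 394, 516 and 328 CPM against 364, 368, 512 and 469 CPM (log2 fold change -0.11 ± 0.109, adjusted p = 0.57), and Plac8 at 289, 351, 1483 and 1280.0 CPM against 757, 478, 1355 and 1109 CPM (-0.34 ± 0.152, adjusted p = 0.15). For Mki67 the log2 fold change was -0.04 ± 0.122 (adjusted p = 0.88). Of 12 tested glycolysis genes 8 were higher in cytokine cells and none lower, and 5 were higher with matched cells. Il2ra (1.47), Pdcd1 (1.65), Cd200 (2.18) and Myc (1.00) were higher too. Of 27 tissue effector genes 4 were higher and 6 lower, among the latter Itgb1 and S100a6, of 10 interferon response genes 5 were lower and none higher, and of 18 cell cycle genes 6 were higher, 3 of them the replication genes Mcm3, Mcm5 and Mcm6. Of 16 costimulatory and inhibitory receptors 3 were higher and 4 lower. With both classes matched on UMIs, calls ended for Capg, Tagln2 and Vim, all higher tissue effector genes, and for Rtp4, Irf7, Klrg1 and Cd28. Those of Capg, Tagln2 and Vim also ended with DESeq2 and without the sample as a block. Without the sample as a block the calls of Ier3, Gzma, Il4, Itgb1, S100a6, Ccr9, Ccr2 and Mcm3 ended, and with DESeq2 those of Ier3, Ccr9, Ccr2, Myc, Mcm3 and Mcm6. That of Myc also ended without medLN 2, and that of Mcm3 without medLN 1 and without MLN 2.

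The last comparison applied the same rule to the lung and MLN of the 2 other mice. There 119 of 2810 cells of MLN 1 (4.23%), 48 of 899 of MLN 2 (5.34%), 1205 of 1605 of lung 1 (75.1%) and 376 of 624 of lung 2 (60.3%) were members, so the share in the other MLN was in the range of the nodes above. The depth of member and other cells differed there too, with medians of 6901 and 7951 against 4793 and 4697 UMIs in MLN. Cells were not matched on UMIs in these mice. In MLN 601 of 9851 genes (6.1%) were higher in members and 401 (4.07%) lower, 10.2% in all, and in lung 358 (3.63%) and 317 (3.22%), 6.85% in all. The log2 difference in lung minus that in MLN was itself called above 0 for 92 genes (0.934%) and below 0 for 228 (2.31%), 3.25% in all. Without the library as a block the counts fell to 520 in MLN and 211 in lung, and without MLN 1 or lung 1 they were 473 and 275.

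Of the 1767 genes higher in members of medLN and MLN, 1697 were tested in the other MLN, of which 1466 (86.4%) had the same sign, 488 were called in the same direction and 2 in the opposite one. Of the 1667 lower genes, 1556 were tested, 1348 (86.6%) had the same sign, 354 were called in the same direction and 2 in the opposite one. In lung the same sign was found for 1145 of 1697 (67.5%) and 1078 of 1556 (69.3%), with 231 and 217 called in the same direction and 25 and 15 in the opposite one. Those called in the same direction were 28.8 and 22.8% in MLN, against 6.1% higher and 4.07% lower over all genes. In lung they were 13.6 and 13.9%, against 3.63 and 3.22%. No same-sign share over all genes is given beside these values. Members were deeper than other cells in both experiments, and the part of depth was not tested. All 10 genes with the largest rise and all 8 tested genes with the largest fall were called in the same direction in the other MLN, although the call of Ccl1 there had an adjusted p of 0.032, and Gzma was at 1.84 but at -1.35 without MLN 1.

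Plac8 was at 975 and 709.6 CPM in the members and 104 and 68.7 CPM in the other cells of the other MLN (log2 fold change 3.33 ± 0.131 (SE), adjusted p = 4.2e-14). In lung it was at 930.3 and 729 CPM against 249 and 319 CPM (log2 fold change 1.63 ± 0.119 (SE), adjusted p = 1.5e-09). Areg was at 161 and 10.03 CPM against 3.14 and 2.14 CPM in MLN (log2 fold change 5.38 ± 0.305 (SE), adjusted p = 1.9e-11; without MLN 1, 2.25 with adjusted p = 0.22) and at 1757 and 607 CPM against 412 and 184 CPM in lung (log2 fold change 2.01 ± 0.13 (SE), adjusted p = 2.7e-10). The other cells of the lung thus held more Areg than the members of the other MLN. Gata3 was higher in members in MLN (2.02) and in lung (0.82), as were Ltb4r1 (4.3 and 2.03) and Cysltr1 (4.01 and 1.48).

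In lung Gzmb (0.26, adjusted p = 0.43), Ccl1 (0.94, 0.07) and Gzma (-0.38, 0.79) were not called, and Nkg7 was lower in members (-0.75, 0.011). Tcf7 (-2.22), Ccr7 (-2.69) and Cxcr5 (-6.53) were lower. S1pr1 and Klf2, which were not called in the nodes, were lower in lung members (-2.09 and -2.25). Csf2, which encodes the growth factor GM-CSF, led the rises in MLN with 3.22 and 281 CPM in members against 0.200 and 0.642 CPM in other cells, so that MLN 2 carried it. The genes with the largest rise among lung members were Igfbp7 (2.45), a secreted binding protein, Ltb4r1, Areg and Calca (1.91), which encodes calcitonin and the peptide CGRP. Tissue effector genes were higher for 21 of 28 in MLN and for 12 of 28 in lung. In lung 2 were lower, Anxa2 and Lgals3. However, Lgals3 was at 0.014 without lung 1, and it was higher in members where T cell receptor chains were required of each cell. Follicular helper genes were lower for 16 of 19 in MLN. In MLN the myeloid gene Lyz2, and in lung the myeloid gene Chil3, led the falls, and the part of such cells there was not tested. In lung the calls of Areg, Nkg7, Lgals3 and Chil3 ended with DESeq2 and without the library as a block, that of Anxa2 without the block, and that of Nkg7 also without lung 2. In MLN that of Gzma ended with both.

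**Figure D5:**
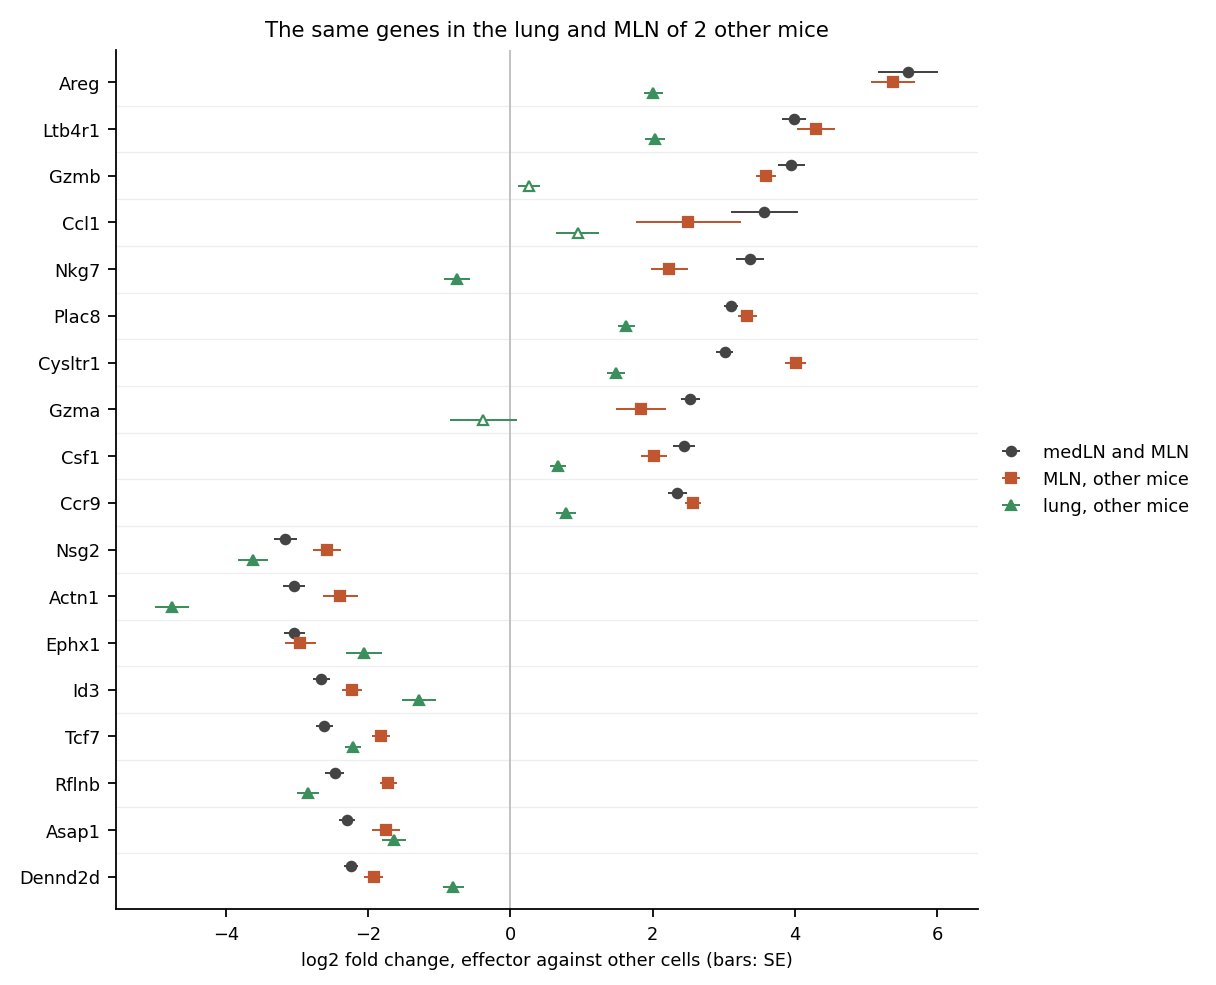
Log2 fold change of effector against other cells, with SE, for the genes of the first comparison that were tested in the other mice: medLN and MLN together (circles), MLN (squares) and lung (triangles) of the other mice. Filled symbols passed an adjusted p of 0.05. In MLN all 18 genes keep their sign, while in lung Gzma and Nkg7, which rose in the nodes, lie below 0.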

How the data were processed

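Cells were sorted by the authors and run on 10x Genomics 5′ single-cell RNA-seq, with hashtag antibodies for medLN and MLN and without them for the lung and MLN of the other mice. The deposited values are UMI counts per gene and cell, filtered to cells by the authors with Cell Ranger (versions 2.1.1, 3.0.1 and 6.1.2 appear in the submitters' processing notes), and whether strand was used in counting is not given in the sources used here. Cells with more than 500 UMIs, more than 500 genes and less than 7% mitochondrial UMIs were kept, and members were assigned as described above. The members and gene lists were chosen with earlier results of these data known.

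Counts of members and other cells were summed per hashtag sample, which gave 8 sums of 611493 to 9043902 UMIs. Sums were compared in edgeR 4.0.16 (R 4.3.3; filterByExpr, TMM, quasi-likelihood test, Benjamini-Hochberg adjustment), with the hashtag sample as a block except between nodes, and with the library as a block in the other mice. Genes of the rule and T cell receptor genes were not tested. Values of some list genes are not reported here. DESeq2 1.42.0 and the other alternatives are given at the end. CPM values use all UMIs of a sum. Named genes were the 10 with the largest change in each direction among those past the threshold with a mean of at least 50 CPM and the same direction in every sample, together with members of the gene lists. Samples of a node come from 2 mice, so p-values measure the spread between these samples. Samples numbered alike come from the same mouse by the labels, and the correlation of their deviations from the node means was -0.0442 over 7118 genes. On simulated counts with 200 genes changed by a log2 value of 2, edgeR recovered 197 for members against other cells, 200 between nodes, 169 for the interaction, 200 for cells with cytokines and 175 for the other mice. Unchanged genes called numbered 12, 6, 4, 8 and 6. The changed genes came only from those with at least 200 UMIs, with a small fixed spread and no sample effects. Recovery of sparse genes, or of genes carried by few cells, was thus not measured. Scrublet in scanpy 1.11.5 called 0 of 9385 cells as doublets and was taken as not having worked, so cells with over 1.5 times the median hashtag UMIs were left out as an alternative. No per-sample column was left unused (0 columns).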

Additional observations from a re-analysis of the deposited data

Results flagged for a closer look

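For 20 named genes the interaction test called a different medLN to MLN difference in effector and in other cells (edgeR, adjusted p between 2.2e-06 and 0.045). As the log2 difference of effector cells minus that of other cells, it was shifted toward medLN by 3.05 for Areg, 1.63 for Rgcc, 1.49 for Hist1h1a, 1.25 for Syt11, 1.22 for Il2ra, 1.21 for Gzmb, 1.01 for Bcl2a1d, 0.89 for Ifi27l2a, 0.83 for Gzma and 0.82 for Hist1h1e. It was shifted toward MLN, with values of -1.70 for Lgmn, -1.29 for Cd74, -1.16 for Gimap7, -1.14 for Tbc1d4, -0.86 for Vsir, -0.79 for Tesc, -0.76 for Glrx, -0.71 for Smpdl3a, -0.63 for Gimap1 and -0.60 for Ms4a4b. With other cells matched on UMIs the calls of 13 of these 20 genes ended, and those of Areg, Hist1h1a, Syt11, Il2ra, Ifi27l2a, Cd74 and Gimap7 were kept. With DESeq2 the calls of 12 ended, those of Areg, Hist1h1a, Syt11 and Cd74 among them. The calls of these 4 genes also ended in at least 1 fit with a sample left out. So did those of Bcl2a1d, Gzma, Hist1h1e, Tbc1d4, Vsir, Tesc, Glrx, Smpdl3a and Gimap1. Without cells carrying Mki67 or Top2a the value of Cd74 was 0.072, and Hist1h1a was not tested. That setting also ended the calls of Areg, Syt11, Gzmb, Hist1h1e, Gimap7, Tbc1d4, Tesc, Smpdl3a, Gimap1 and Ms4a4b. Counts of Hist1h1a, Hist1h1e, Bcl2a1d, Gimap1 and Gimap7 are uncertain, since these genes have near-identical copies or close relatives.

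In the other mice the difference between effector and other cells was not the same in lung and MLN for 12 of the named genes (edgeR, adjusted p between 1.2e-09 and 0.042), against a background of 3.25% of 9851 genes. As the log2 difference in lung minus that in MLN, it was -3.37 for Areg, -3.33 for Gzmb, -2.99 for Nkg7, -2.53 for Cysltr1, -2.37 for Actn1, -2.27 for Ltb4r1, -2.22 for Gzma, -1.79 for Ccr9, -1.70 for Plac8, -1.35 for Csf1, -1.13 for Rflnb and 1.12 for Dennd2d. The other cells of the lung were themselves unlike those of the MLN, with 249 and 319 CPM of Plac8 against 104 and 68.7 CPM. Shares of cells with a rule gene were 75.1 and 60.3% in lung and 4.23 and 5.34% in MLN, and their part in these differences was not tested.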

How the results depend on the processing

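Between medLN and MLN 2 mice were sampled, members held more UMIs than other cells and more of them were dividing, and genes below about 50 CPM rest on few counts in sums of 20 to 171 cells. In MLN 1 the 20 cells with Il13 or Il5 held 182101 UMIs.

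For effector against other cells (3434 genes), DESeq2 called 2279, cells without Mki67 or Top2a gave 1648, other cells matched on UMIs 1080, both together 807 and members with Il1rl1 alone 1995. Between nodes (104 genes), DESeq2 called 44, no filter on low counts gave 252, no dividing cells 31, members with 2 or more UMIs 53 and cells with many hashtag UMIs left out 64, and leaving out 1 sample gave 123 to 273. With mouse as a replicate block 75 were called. For the interaction (35 genes), DESeq2 called 10, no filter gave 76, a hashtag share of 90% gave 53, leaving out cells with innate-like markers 23, matched cells 14 and leaving out 1 sample 35 to 76. For cells with cytokines (912 genes), DESeq2 called 238, no replicate block gave 573 and leaving out 1 sample 475 to 852. In the other mice DESeq2 called 452 genes in MLN, 192 in lung and 137 for lung minus MLN, the fit with no replicate block called 520, 211 and 67, and leaving out 1 sample gave 473 to 1132, 275 to 957 and 234 to 369. For effector against other cells the fit with no replicate block called 3395. The mean share was 4.37% in medLN and 4.22% in MLN after thinning, and 3.64% and 3.78% with 2 or more UMIs, so that medLN minus MLN went from 0.278 to -0.144 percentage points. The cause of these shifts was not tested.

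Signs turned for Gzma (-0.11 with cells with cytokines as members), Cd44 (0.22 without dividing cells, 0.43 with matching as well), Jun and Junb (-0.50 and -0.042 with Il1rl1-only members) and Tpi1 (-0.011 without dividing cells and with matching). In the interaction they turned for Cd74 (0.072 without dividing cells) and Plac8 (-0.56 to 0.069 on leaving out 1 sample, 0.0059 with matching), and for cells with cytokines for Il10 (-0.19 to 1.95 on leaving out 1 sample). In the other mice they turned for Gzma in MLN (-1.35 to 2.07 on leaving out 1 sample) and Lgals3 in lung (1.26 with T cell receptor chains required, -1.09 to 0.014 on leaving out 1 sample).

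Of the values of named genes under the alternatives, 1405 kept direction and side of the threshold for effector against other cells and 83 fell below it, 486 and 85 between nodes, 259 and 111 for the interaction, 579 and 105 for cells with cytokines, 584 and 71 in the MLN and 538 and 79 in the lung of the other mice. The alternatives with many hashtag UMIs, shared barcodes, matching with dividing cells left out, matching of cells with cytokines, and leaving out samples of the other mice were chosen after seeing the data. Leaving out called doublets gave no value.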

Other observations

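Il4 transcripts were found in 50.8, 60.3, 47.0 and 67.3% of the effector cells and in 35.1, 35.9, 37.6 and 40.3% of the other IL-4eGFP+ cells, so many reporter-positive cells of both kinds had no Il4 UMI at this depth. With each cell thinned to 2000 UMIs these shares were 29.0, 35.9, 18.3 and 32.7% against 23.3, 23.7, 25.4 and 23.99%, so that the effector cells were below the other cells in MLN 1. In the IL-4eGFP- library 2, 3, 0 and 0 cells had one. Mcpt8, a basophil protease gene, had 21 UMIs in 5 effector cells, and Hdc was found in 44.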
